A study of Mus musculus with 2 samples.

Results

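Small nucleolar RNA (snoRNA) genes were examined in total RNA sequencing of mouse adrenal gland. An entry was taken when the annotation gave it the biotype snoRNA and its level was at least 1 TPM, a share of the library's transcripts scaled for length, in both deposited gene tables. The 107 members, of 1507 annotated snoRNA entries among 55536 annotated genes, were thus chosen by their measured TPM. The levels that follow therefore describe entries chosen for being above 0, and no test was made of them. Over all annotated genes, 25.5% met the same limit. The 2 libraries formed 1 group, adult male 5xFAD X Cast mice of 8 to 10 months, and were made with ribosomal RNA reduction and ERCC spike-ins from 300 ng of RNA. 5xFAD is a transgenic mouse model of Alzheimer's disease whose transgenes are driven by neuronal Thy1 elements, and CAST mice descend from wild-caught animals. The labels do not say whether each animal carried the transgenes, and both libraries cite the same donor entry with separate tissue samples. Whether the spread between them is biological cannot be told apart from technical spread. There was no second group, so no condition was compared.

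snoRNAs are short, stable nuclear RNAs, most of which are cut from introns of a host gene after splicing. C/D snoRNAs, named for the conserved C and D boxes near their ends, guide ribose methylation of ribosomal and spliceosomal RNA together with the methyltransferase fibrillarin. H/ACA snoRNAs end in the triplet ACA near their 3′ end and guide pseudouridylation together with dyskerin. A few, among them U3, U8 (Snord118), U17 (Snora73) and U22 (Snord22), act in the cleavage of the ribosomal RNA precursor instead of guiding a base change. Cajal body RNAs (Scarna) resemble snoRNAs and guide modification of the spliceosomal RNAs.

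The sequences of the highest members show what the name classes mean and how long a counted snoRNA was. They are the GENCODE M21 transcripts in the orientation of the gene, on mm10 (GRCm38). In the C/D entries the capitals mark the first TGATGA (C box) and the last CTGA (D box). Snord47, from an intron of Gas5, is shown for contrast, as a C/D snoRNA with both boxes that is too short to have been counted.
Snord15b: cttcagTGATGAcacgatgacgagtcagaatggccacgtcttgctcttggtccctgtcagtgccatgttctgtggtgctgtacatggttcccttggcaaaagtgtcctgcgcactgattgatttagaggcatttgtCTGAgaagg
Gm22486: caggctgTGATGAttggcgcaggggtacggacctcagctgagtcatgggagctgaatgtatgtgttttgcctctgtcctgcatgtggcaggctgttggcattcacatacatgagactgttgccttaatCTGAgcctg
Gm25835: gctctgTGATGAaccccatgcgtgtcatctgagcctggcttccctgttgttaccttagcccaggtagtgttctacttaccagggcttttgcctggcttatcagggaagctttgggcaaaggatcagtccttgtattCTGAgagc
Snord47: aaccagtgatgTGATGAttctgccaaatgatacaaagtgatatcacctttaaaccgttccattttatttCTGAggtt

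Snord15b lies at chr7:99479563-99479707 on the minus strand, inside Rps3. Gm22486 lies at chr6:71882557-71882693 on the minus strand, inside Ptcd3, and RefSeq names the gene at exactly these positions Snord94. Gm25835 lies at chr11:69668852-69668995 on the minus strand, inside Eif4a1, and Snord47 at chr1:161038082-161038158 on the plus strand.

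In the next set the capitals mark the 3 bases that stand 3 bases before the 3′ end, which are ACA in an H/ACA RNA. Snora73b and Snora73a, the U17 genes, were 205 bases long each and identical at 198 positions, with 7 mismatches (96.6% identity in a global alignment). Gm26448, an unnamed entry inside Rpsa, matched Snora73b at 87.8% of aligned positions. Gm26447, shown for contrast, carries AAA at that place and held neither box pattern searched for below. An ACA does lie nearer its annotated 3′ end, where the search did not look, so its class is not settled by this.
Snora73b: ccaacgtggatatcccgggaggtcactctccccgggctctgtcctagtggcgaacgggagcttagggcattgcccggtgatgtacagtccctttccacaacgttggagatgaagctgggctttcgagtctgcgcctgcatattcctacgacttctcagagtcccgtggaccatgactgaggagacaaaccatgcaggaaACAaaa
Gm26448: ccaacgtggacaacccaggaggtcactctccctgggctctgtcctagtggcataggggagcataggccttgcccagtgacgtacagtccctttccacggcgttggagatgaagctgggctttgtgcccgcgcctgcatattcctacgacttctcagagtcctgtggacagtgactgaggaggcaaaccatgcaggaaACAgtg
Gm22988: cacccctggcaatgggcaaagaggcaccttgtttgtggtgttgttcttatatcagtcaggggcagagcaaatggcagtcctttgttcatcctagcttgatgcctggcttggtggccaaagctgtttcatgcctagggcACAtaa
Gm26447: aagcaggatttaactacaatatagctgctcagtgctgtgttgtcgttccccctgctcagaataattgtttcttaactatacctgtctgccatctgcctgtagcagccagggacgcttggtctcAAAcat

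Snora73b lies at chr4:132352322-132352526 on the minus strand, inside Snhg3 and Rcc1. Gm26448 lies at chr9:120129351-120129553 on the plus strand. Gm22988 lies at chr11:69669635-69669778 on the minus strand, inside Eif4a1, and Gm26447 at chr16:23111301-23111429 on the plus strand, inside Eif4a2.

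Length decided which snoRNA entries could have a value at all. The gene tables list an effective length of the annotated length less 100 bases for each of the 1048 entries longer than 100 bases, and of 0 for each of the 459 entries of 100 bases or less. All 459 short entries have 0 counts in both libraries, so their level was not measured. Of the 98 entries named Snord, 87 fall in this class, and 7 of the other 11 were members. Among 50 matched Snord entries on a list of textbook host pairs, 47 were of 100 bases or less. All 17 Snord116 entries, the imprinted family carried by Snhg14, are 94 bases long, while Snhg14 itself was at 4.21 TPM in replicate 1 and 4.00 TPM in replicate 2. The 4 matched Gas5 entries are also short, beside 127.3 and 145.5 TPM for Gas5.

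H/ACA snoRNAs are longer, and none of the 42 Snora entries was of 100 bases or less. 27 of them were members. Above 120 bases the share of entries detected was higher in longer classes. It was 24 of 342 entries between 121 and 130 bases and 46 of 458 between 131 and 140. It was 13 of 66 between 141 and 160, and 21 of 44 above 160 bases. The last class holds the 10 U3 entries, 9 of them members. Among shorter entries, 2 of 47 over 100 and up to 110 bases were detected, and 1 of 91 over 110 and up to 120. The median length of the members was 134 bases, and their range was 109 to 325 bases. Any C/D snoRNAs among the members are therefore long ones. Length alone does not give the class of members without a class name.

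**Figure D1:**
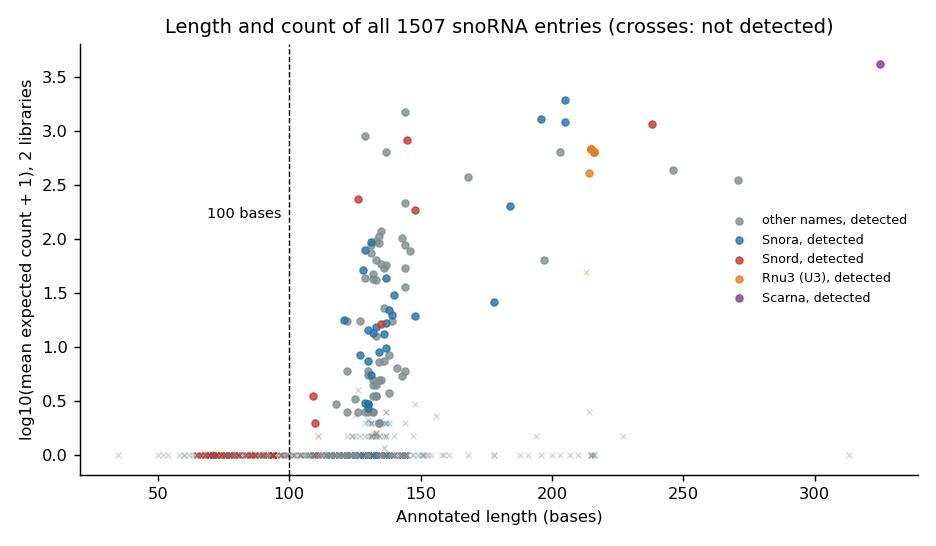
Annotated length (horizontal axis, bases) against log10 of the mean expected count plus 1 over the 2 libraries (vertical axis), for all 1507 snoRNA entries, coloured by name class, with members as circles and other entries as crosses. Every entry left of the dashed line at 100 bases sits at 0, and most Snord entries lie there.

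The 107 members comprised 7 Snord, 27 Snora and 1 Scarna entry, 9 U3 entries (Rnu3) and 63 with other names, mostly Gm numbers. A script searched each sequence for TGATGA starting in the first 20 bases together with CTGA starting in the last 15 bases, and for ACA followed by exactly 3 bases at the 3′ end, all on the transcribed strand. Both C/D boxes were found in 5 of 7 Snord members, in Scarna10 and in 3 of the 63 members with other names. The ACA ending was found in 22 of 27 Snora members, in 40 of 63 with other names and in no Snord member. Over all 1507 entries, 20.3% held the C/D pair and 18.3% the ACA ending. A match is a description of the letters, and its absence says nothing about the class of an entry: Snord22 lacks an exact TGATGA in that window. Among entries longer than 100 bases, 62 of 256 with the ACA ending were members (24.2%) and 45 of 792 without it (5.68%). Of the 306 entries with the C/D pair, 292 are of 100 bases or less and could not be counted. 9 of the 14 longer ones were members, and these 9 are among the 45.

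C/D snoRNAs had the higher typical level, over few entries. The median TPM of the 7 Snord members was 169.5 in replicate 1 and 113.2 in replicate 2, a mean of 141 ± 39.8 (SD, n = 2). The 27 Snora members had medians of 18.62 and 15.03 TPM, a mean of 16.8 ± 2.54 (SD, n = 2). The 63 members with other names had medians of 16.71 and 18.04 TPM. Since the Snord members are the few longer than 100 bases, the medians compare different slices of the 2 classes. In bulk tissue, fewer cells of a type and less RNA per cell cannot be told apart.

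Snord15b was the highest Snord member at 780.5 TPM in replicate 1 and 564 TPM in replicate 2, from 1006 and 649.3 expected counts. Its partner in another intron of Rps3, Snord15a, was at 169.5 and 113.2 TPM, below Snord15b in each library. The pair share 101 of their aligned bases (65.6% identity). Snord22, the U22 RNA that acts in precursor cleavage, followed at 353.5 and 303.1 TPM. It was the only one of 8 snoRNA entries inside Snhg1 to be detected, and the other 7 are of 100 bases or less. Snord17, in Snx5, which encodes a sorting nexin, was at 345.4 and 268.5 TPM from 1365 and 948 counts.

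The other Snord members were low. Snord118, the U8 RNA, lies in no gene on its strand and was at 14.0 and 19.0 TPM, from 14 and 17 counts. Snord23 was at 11.6 and 8.69 TPM from 3 and 2 counts. Snord8 was at 3.49 and 3.91 TPM from a single count in each library, because its effective length is 10 bases. These levels rest on so few counts that their order is not resolved: the deposited TPM bounds of Snord8 run from 0.171 to 16.3 in replicate 1, and those of Snord23 from 2.72 to 30.0.

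The U17 gene Snora73b was the highest of the Snora members, at 763.5 TPM in replicate 1 and 593 TPM in replicate 2, from 2296 and 1593 counts. Snora73a was at 471.4 and 375.3 TPM, below Snora73b in each library with no overlap between the 2 genes. The deposited bounds did not meet either, at 713.9 to 775.7 TPM for Snora73b and 435.8 to 485.2 TPM for Snora73a in replicate 1. The genes are nearly identical, and the part of shared reads in this difference was not tested. Their deposited posterior SDs were 9.60 and 10.01 counts in replicate 1, small beside their counts. Snora74a, in a noncoding gene, stood between the U17 genes at 524.8 and 478.3 TPM.

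Among the other Snora members was Snora44, in the noncoding host Snhg12, at 108 and 91.9 TPM. Snora23, in Ipo7, which encodes an importin, was at 98.9 and 78.2 TPM. Snora78 was at 78.6 and 53.1 TPM and Snora21, in Rpl23, at 50.01 and 33.81 TPM. Each of these 4 was higher in replicate 1. At the foot of the class, Snora24 was at 2.53 and 1.66 TPM from about 2.17 and 1.28 counts, and its lower bound was under 0.01 TPM in each library.

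Entries without a snoRNA name held the highest levels of all. Gm22988 was at 1476 TPM in replicate 1 and 1050 TPM in replicate 2, from 1860 and 1182 counts. Gm26447 was at 1317 and 965 TPM. Gm22486, which RefSeq calls Snord94, was at 716.2 and 547.2 TPM from 759 and 518 counts. Gm26448, the U17-like entry in Rpsa, was at 243.1 and 211.8 TPM, and Gm23262, in the translation factor gene Eif4g2, at 218.3 and 185 TPM. Gm25835, the C/D entry of Eif4a1, was at 196 and 164.3 TPM. All 6 lie inside protein-coding genes. The only Cajal body member, Scarna10, lies in the condensin subunit gene Ncapd2 and was at 706.7 and 679.5 TPM. It had the most counts of any member, 4554 and 3912.

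**Figure D2:**
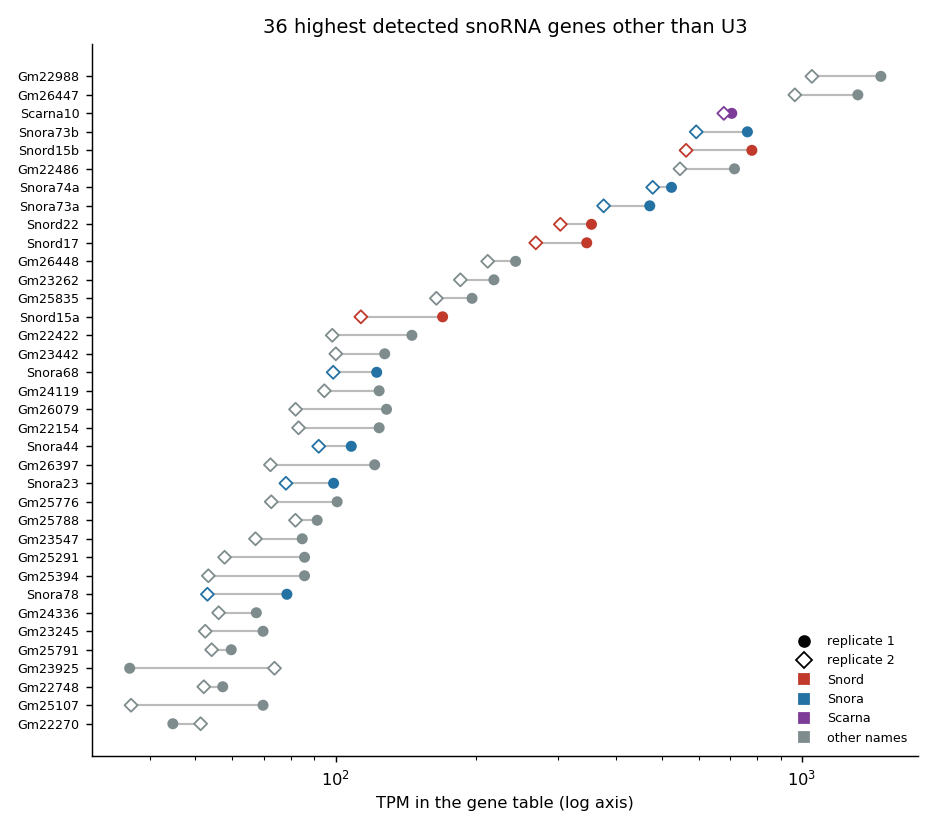
TPM in the gene table (horizontal log axis) for the 36 highest members outside U3, ordered by their mean. Filled circles are replicate 1 and open diamonds replicate 2, coloured by name class, and replicate 2 lies left of replicate 1 for all but Gm23925 and Gm22270.

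Together the members held 28121 expected counts in replicate 1 and 20231 in replicate 2, which is 0.0963% and 0.0769% of the counts of annotated genes. Because TPM divides by an effective length of mostly 21 to 59 bases, the same entries held 1.31% and 1.02% of all TPM. The 10 highest members made up 57.0% and 56.9% of the members' TPM. Levels ran from 1.09 to 1263 TPM as means of the 2 libraries, with a median of 22.6 TPM, and 24 members were at 100 TPM or more in both libraries.

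At the low end the limit of 1 TPM equals about 1 read. In replicate 1 a single count was worth 1.03 TPM for the median member, 0.155 TPM for Scarna10 and 3.88 TPM for Snord23. Gm23105 and Gm25517, the 2 lowest members, had 1 count in each library, 1.03 and 1.15 TPM. Gm25617 was next at 1.09 and 2.44 TPM. Just outside the limit, Gm22299 had the same 1 and 1 counts at 0.97 and 1.09 TPM, Gm26236 was at 0.94 and 2.11 TPM, and Snora47 at 0.92 and 1.03 TPM. Members and other entries at this edge differ by a few bases of length and not by counts. In all, 19 members had at most 3 counts in each library and 38 had fewer than 10 in each, while 65 had a deposited lower bound of at least 1 TPM in both libraries.

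U3 RNA, the C/D snoRNA that starts the processing of the ribosomal RNA precursor, is transcribed from its own promoters and not cut from introns. The annotation holds 4 Rnu3b genes side by side on chromosome 11, inside Tex14, and Rnu3a on chromosome 10. Each gene is listed as 2 overlapping entries that differ by 1 base in length, so that 10 entries stand for 5 loci. U3 is shown because its C box lies far from the 5′ end, at base 156 in Rnu3a and base 157 in Rnu3b1. The genes aligned at 85.2% identity. Rnu3a lies at chr10:40258467-40258680 and Rnu3b1 at chr11:87443237-87443451, both on the plus strand.
Rnu3a: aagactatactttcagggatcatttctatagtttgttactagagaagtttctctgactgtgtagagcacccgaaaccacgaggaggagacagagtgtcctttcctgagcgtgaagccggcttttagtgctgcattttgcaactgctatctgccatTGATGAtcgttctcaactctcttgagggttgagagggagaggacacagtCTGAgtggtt
Rnu3b1: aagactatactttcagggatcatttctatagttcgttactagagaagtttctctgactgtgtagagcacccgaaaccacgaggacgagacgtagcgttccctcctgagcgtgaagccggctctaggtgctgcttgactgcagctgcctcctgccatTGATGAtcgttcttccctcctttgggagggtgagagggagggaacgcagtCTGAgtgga

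The 4 Rnu3b entries of 215 bases have identical sequences and carry identical values, 261.1 TPM in replicate 1 and 168 TPM in replicate 2. The 4 entries of 216 bases are likewise identical to each other, at 215.9 and 191.7 TPM. Equal values here mean that shared reads were divided evenly, and the level of any single copy is not known: the deposited bounds of the 215-base Rnu3b2 entry in replicate 1 run from 0.000407 to 493.6 TPM. Within the gene tables the sum over the copies is better determined. The 8 Rnu3b entries held 6310 and 4253 counts and 1908 and 1439 TPM. Rnu3a, of 214 bases, was at 161.4 and 102 TPM, and its 213-base twin at 0.29 and 33.1 TPM, which kept it out of the members. The 9 U3 members held 24.3% and 22.5% of all counts of members. Tex14 was at 0.56 and 0.34 TPM.

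The second quantifier, a deposited transcript table made directly from the reads, listed few of these RNAs. 92 of the 107 members were at 0 in both libraries there, 4 had counts in 1 library only, and 11 were above 0 in both. Among the 92 were Gm22988 and Gm26447, the highest in the gene tables, and every member with counts was at least 144 bases long. The members held 0.182% and 0.0973% of the TPM of that quantifier. The 9 U3 members together held 77 and 12 counts there, against 6837 and 4550 in the gene tables. Scarna10 was near its gene-table level, at 568.8 and 540.8 TPM. Gm23547, in the prohibitin gene Phb2, was at 578.9 and 410.8 TPM against 84.7 and 67.3 TPM in the gene tables. Snord17 was at 553.7 TPM in replicate 1 and 4.92 TPM in replicate 2, from 1011 and 9 counts, where the gene tables list 1365 and 948 counts. Gm24336 was at 33.2 TPM and at 0. The 2 libraries thus differed far more for Snord17 in the second quantifier than in the gene tables.

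**Figure D3:**
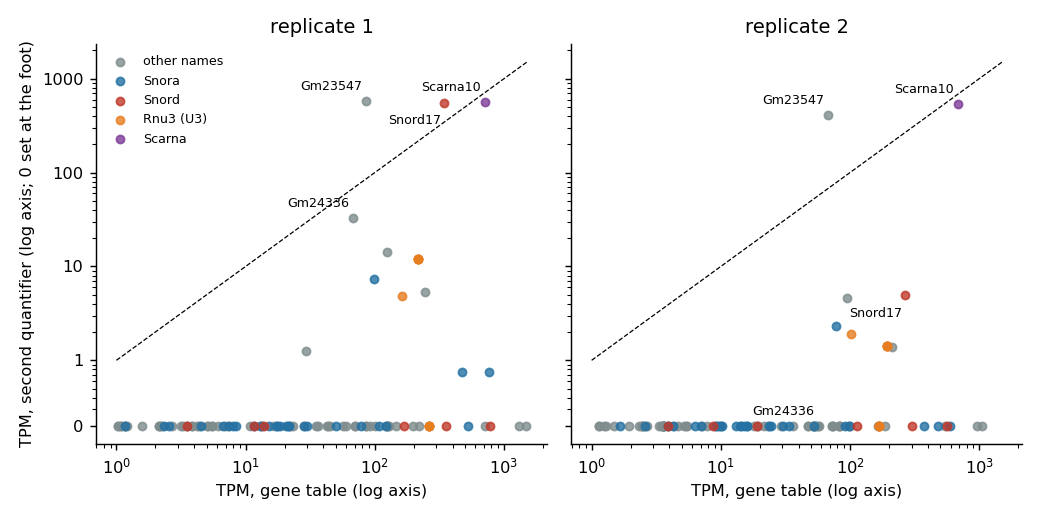
TPM of the 107 members in the gene table (horizontal log axis) and in the second quantifier (vertical log axis, with 0 set at the foot), 1 panel for each library, coloured by name class, with the dashed line of equality. Most members lie at 0 on the vertical axis, and Snord17 is near 553.7 TPM in replicate 1 and 4.92 TPM in replicate 2.

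Most members were lower in replicate 2. TPM was higher in replicate 1 for 72 of the 107. A mean count of at least 20 was reached by 54, and their median log2 ratio of replicate 2 to replicate 1 was -0.36 after scaling by TMM, edgeR's trimmed mean of M values. 48 of the 54 were lower in replicate 2, against 51.4% of all 16380 genes that passed the same count limit, whose median was -0.01. With a single library on each side there is no test, and the standard errors given with these ratios cover counting error only. 33 members lay more than 2 such errors below 0, and 2 lay that far above it. 9 of the 33 are U3 entries, whose division of shared reads these errors do not cover. None was over 2-fold apart, against 1.67% of all genes. Among the 29 members averaging 100 counts or more, the 9 U3 entries included, all 29 were lower in replicate 2, from -0.68 to -0.08 with a median of -0.38. Counting 1 entry a locus and leaving out U3 gave 39 of 45 lower and a median of -0.35. Of these 45, 24 lay more than 2 counting errors below 0 and 2 that far above it.

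The median ratio was -0.44 for 4 Snord, -0.34 for 11 Snora and -0.37 for 29 members with other names. The U3 entries share reads, and the ratio differed between twin entries of the same locus, at -0.66 for the 215-base and -0.19 for the 216-base copies of Rnu3b. Summed over the 8 Rnu3b entries, a step added after seeing the data, it was -0.43 ± 0.03 (counting SE). Rnu3a, the lowest of the 29 abundant members at -0.68, was at -0.28 ± 0.10 (counting SE) when summed with its 213-base twin. Scarna10, the longest member, was the nearest to 0 of the 29 abundant members at -0.08 ± 0.03 (counting SE). Gm25107 was the farthest down at -0.95 ± 0.33, followed by Gm26397 at -0.76 ± 0.22 and Gm25394 at -0.70 ± 0.27. Gm23925 was the farthest up at 0.99 ± 0.31 and Snora81 was at 0.88 ± 0.41. Gm23925 shares its position with a long noncoding entry of the same symbol, which was at 59.4 TPM in replicate 1 and 0 in replicate 2, while the snoRNA entry was at 36.1 and 73.9 TPM. In counts the noncoding entry held 54.39 and 0, and the snoRNA entry 33.12 and 60.48. The deposited bounds of the snoRNA entry in replicate 1 run from 0.000623 to 80.0 TPM. Its counting error does not cover the division of reads between the entries, which was not tested. The same holds for Snora81, which a retained-intron transcript of Eif4a2 covers wholly. The posterior SDs of Snora81 were 5.59 and 5.1 counts, on 18.76 and 31.81 counts.

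Other short RNAs differed in the same direction. The median log2 ratio was -0.41 over 30 small nuclear RNA genes, with 29 lower in replicate 2, and -0.18 over 117 non-snoRNA genes of 330 bases or less, with 67.5% lower. Over 13802 protein-coding genes 50.03% were lower. Spike-in scaling, chosen after seeing the data, moved the members' median to -0.45 and that of all genes to -0.10. Fat-cell markers also fell on the same side: all 5 (Adipoq, Fabp4, Plin1, Lep and Cidec) were lower in replicate 2, with summed levels of 470.3 and 273.6 TPM and none at 0. The part of short RNA recovery, library depth or fat cells in the snoRNA difference was not tested.

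**Figure D4:**
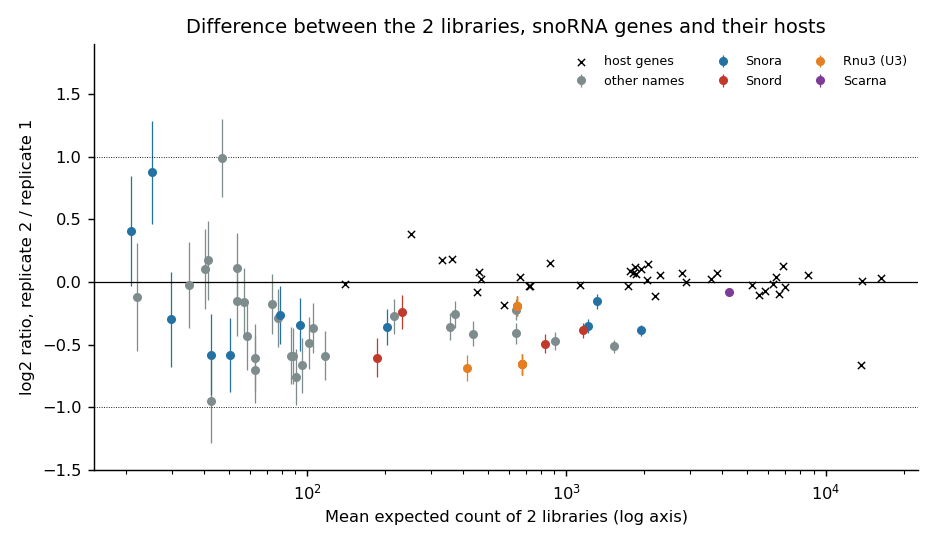
log2 ratio of replicate 2 to replicate 1 (vertical axis) against mean expected count (horizontal log axis) for the 54 members that passed the count limit, coloured by name class with bars of 1 counting standard error, and for their host genes as crosses. The members lie mostly below 0, while the host crosses run from -0.66 (Slc25a3) to 0.39, with a median of 0.03 over pairs.

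Members were placed in host genes far more often than snoRNA entries at large. 100 of 107 members (93.5%) lay wholly inside another gene on the same strand, against 666 of all 1507 entries (44.2%). 85 lay in protein-coding genes. Among entries longer than 100 bases, 91 of 211 inside a detected gene were members (43.1%), 9 of 72 inside a gene that was not detected (12.5%) and 7 of 765 in no gene (0.915%). 8 of the 9 in genes that were not detected were the Rnu3b entries in Tex14. The contrast lay in entries not named Snord or Snora. Of these, 62 of 166 inside a detected gene were members (37.4%) and 3 of 759 in no gene (0.395%). For Snord and Snora entries the shares were alike, at 29 of 45 (64.4%) and 4 of 6 (66.7%), the latter over few entries. Outside U3 and with 1 entry a locus, 92 members formed snoRNA and host pairs with 78 host genes, and 91 of these pairs had a host that met the limit of 1 TPM. The exception was Snora78, whose host Snhg9 was at 0.42 and 0.94 TPM.

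Exons of other transcripts covered at least 50% of the length of 35 members, for 25 of them in a transcript annotated as a retained intron. Reads of such a transcript and of the snoRNA cannot be told apart at that position. Those 35 had median levels of 21.5 and 15.9 TPM, and the other 72 of 26.3 and 23.4 TPM. Gm22988, Gm26447, Snord15b and Snord22 are among the 35, and the retained-intron transcript of Eif4a1 over Gm22988 was listed at 396 and 430.5 counts (4.51 and 5.49 TPM) beside 1860 and 1182 counts for Gm22988. Snora73b, Gm22486, Snord17 and Gm25835 are among the 72.

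Across the pairs, whose snoRNAs were chosen by their TPM, snoRNA level was only weakly related to host level. Spearman's rho between snoRNA and host TPM was 0.16 over 92 pairs, 0.16 in replicate 1 and 0.14 in replicate 2, and was -0.11 over the 60 pairs whose snoRNA was at 5 TPM or more in both libraries. Pairs share libraries and some share a host, so rho is a description with no p. snoRNA entries below the limit are left out, so rho does not describe all snoRNA entries inside detected hosts. The limit of 5 TPM cuts the same snoRNA levels further. In 54 pairs the snoRNA was below its host in both libraries, and in 31 it was above. Hosts grouped as translation factors had median levels of 190.7 and 207.2 TPM over 10 pairs, where the snoRNA was below the host in 7. These pairs come from 5 hosts, each counted once a pair, with Eif4a2 in 4 pairs and Eif4a1 in 3. The group also holds Eif2ak3, a kinase gene and not a translation factor, at 8.96 and 10.63 TPM. Ribosomal protein hosts had medians of 185.4 and 193.5 TPM over 13 pairs, where the snoRNA was below the host in 10. For 15 pairs in noncoding hosts the host medians were 12.7 and 11.7 TPM, and the snoRNA was above the host in 9. The annotation types Cct6a as a processed transcript, so its 2 pairs count there although the gene is known to encode a chaperonin subunit. Conversely, it types Snhg11 as protein-coding. The pair of Snhg11 with Gm25129 is thus left out there, although the gene lists used here hold Snhg11 as a noncoding host.

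The largest excess of a snoRNA over its host was that of Snora78, at 187 and 56.4 times the TPM of Snhg9. Snhg9 averaged only 1.5 counts, so the size of this excess and its rank are not resolved. Snora74a was 73.8 and 48.8 times its host. In the second quantifier that host was at 100.4 and 93.6 TPM and Snora74a at 0, so no excess was seen there. A retained-intron transcript of the host covers Snora74a wholly, and the division of reads between them was not tested. The hosts of Snora78 and Snora74a are noncoding, as is Snhg3. Snora73b was 59.9 and 44.1 times the TPM of Snhg3, which was at 12.7 and 13.4 TPM. Scarna10 was 54.2 and 51.6 times Ncapd2. Snord22 was 17.6 and 14.8 times Snhg1, and Gm22486 was 18.7 and 13.2 times Ptcd3, which encodes a mitochondrial ribosomal protein. At the other end, Snora31 was at 18.6 and 14.3 TPM inside Tpt1, the most highly expressed host at 759.7 and 781.7 TPM. Snora52 was 0.0241 and 0.0293 times the TPM of its host Rplp2.

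Members of the same host could differ widely. Eif4a1, an RNA helicase gene of translation initiation at 162.2 and 179 TPM, carried Gm22988 at 1476 and 1050 TPM, Gm25835 at 196 and 164.3 TPM and Gm24029 at 6.13 and 1.24 TPM. The highest and lowest thus lay 240.8-fold and 846.6-fold apart in the 2 libraries, the latter on 1.37 counts of Gm24029. Its relative Eif4a2, at 219.3 and 235.3 TPM, carried Gm26447 at 1317 and 965 TPM, Gm24616 at 13.43 and 18.04 TPM, Snora81 at 8.40 and 15.9 TPM and Gm24201 at 2.26 and 4.64 TPM. In Snx5, Snord17 at 345.4 and 268.5 TPM stood beside Gm26165 at 7.28 ± 0.106 TPM (mean ± SD, n = 2). Ipo7 carried Snora23 at 98.9 and 78.2 TPM and Gm25636 at 4.23 and 3.55 TPM. The order within each of these 4 hosts held for the highest member in both libraries.

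The fold between members of a host was smaller elsewhere, at 1.62 and 1.58 in Snhg3 and 4.61 and 4.98 in Rps3. Pabpc4, which encodes a poly(A)-binding protein, carried Gm22154 at 123.9 and 83.2 TPM and Gm25788 at 91.2 and 82.0 TPM. The 2 entries nearly met in replicate 2. Taf1d carried Gm25791 at 59.7 and 54.2 TPM and Gm22620 at 16.7 and 9.05 TPM, and 3 of the 8 snoRNA entries inside Taf1d are of 100 bases or less. Wider gaps were seen in Cct6a and Snhg12. Cct6a carried Gm23245 at 69.8 and 52.5 TPM and Snora15 at 4.51 and 6.30 TPM. Snhg12 carried Snora44, given above, and Snora61 at 11.7 and 3.91 TPM.

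**Figure D5:**
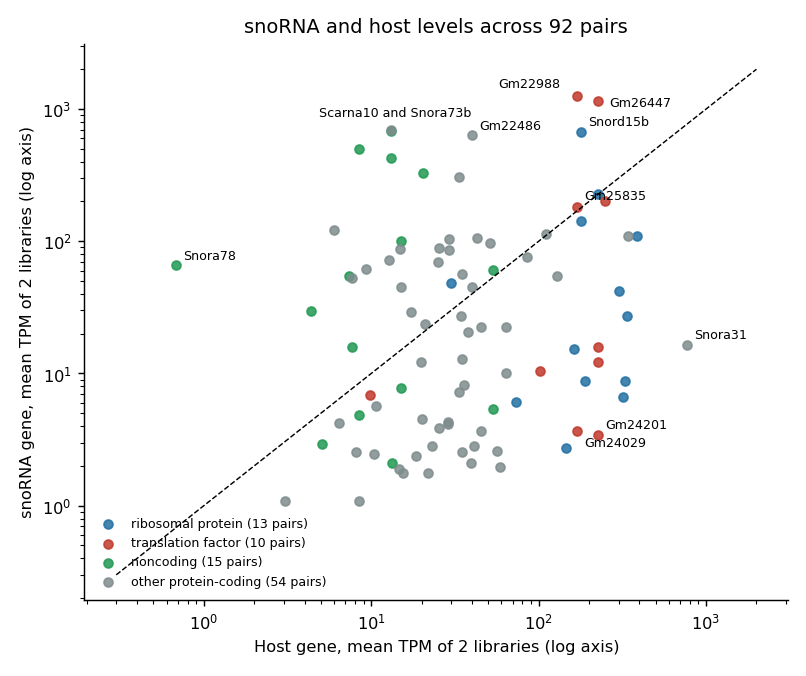
Mean TPM of the snoRNA (vertical log axis) against mean TPM of its host (horizontal log axis) for 92 pairs, coloured by kind of host, with the dashed line of equality. The points fill the plane on both sides of the line, and Gm22988, Gm25835 and Gm24029 of 1 host, Eif4a1, stand at 1 host level and 3 different snoRNA levels.

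The hosts' median ratio between the libraries was near 0. In 44 pairs with a mean count of at least 20 on both sides, the median log2 ratio of replicate 2 to replicate 1 was -0.35 for the snoRNA and 0.03 for the host. The snoRNA ratio lay below that of its host in 37 of 44 pairs, by a median of 0.39 on the log2 scale, and by more than 2 counting errors in 21. It lay that far above in 2 pairs, Gm23925 with Snhg17 and Gm24119 with Slc25a3, named after their values were seen. For Gm23925 the counting error does not cover the division of reads with the noncoding entry at its position. Slc25a3, the mitochondrial phosphate carrier gene, had the lowest ratio of any host at -0.66 ± 0.02, and Gm24119 inside it was at -0.41 ± 0.10.

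The genes for the proteins that carry snoRNAs were all detected as RNA, and protein was not measured. Of the C/D core proteins, Fbl (fibrillarin) was at 30.8 and 29.2 TPM, Nop56 at 39.1 and 43.2 TPM, Nop58 at 25.7 and 30.5 TPM and Snu13 at 26.5 TPM in both libraries. The H/ACA core genes were lower, with Dkc1 (dyskerin) at 11.9 and 13.9 TPM, Nop10 at 25.1 and 25.3 TPM, Nhp2 at 17.99 and 20.53 TPM and Gar1 at 15.96 and 17.75 TPM. The median levels were 28.6 and 29.9 TPM for the 4 C/D genes and 17.0 and 19.1 TPM for the 4 H/ACA genes. All 14 assembly and maturation factors were detected, with medians of 7.51 and 7.52 TPM. The core genes had median log2 ratios of replicate 2 to replicate 1 of 0.13 and 0.06, on the other side of 0 from the members' median. Nop56 is itself a host: 4 of its 5 snoRNA entries are of 100 bases or less, and the remaining one, Gm24451, was at 2.12 and 3.55 TPM.

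Markers of the labelled tissue were high. The 5 adrenal cortex markers, among them Star and Cyp11a1 of steroid synthesis, had medians of 2869 and 3005 TPM, and the 5 medulla markers, among them Th and Dbh of catecholamine synthesis, of 173.8 and 216.1 TPM. All 10 were detected. The 5 kidney markers summed to 2.33 and 1.40 TPM and the 5 liver markers to 1.59 and 1.30 TPM. Annotated genes held 29204618 and 26322446 counts after rounding.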

How the data were processed

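The deposited gene tables give an expected count, a TPM and an FPKM for every gene, 1 table a library. Per the file headers and the deposited library notes they derive from reads aligned to the transcriptome, on mm10 with annotation M21. The same deposited tables hold TPM bounds and a posterior SD, signal-type values whose interval level is not given in the sources used here. The deposited transcript tables add each transcript's percent of its gene, and another deposited table, the second quantifier, holds its own estimated counts and TPM, built from unaligned reads. The aligner, the quantifiers and the strand setting were not given in the sources used here. Spike-ins and 26248 entries with numeric identifiers, at 0 counts, stayed out of library sizes.

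Members and lists were chosen with earlier results of these data known. Names gave the class, and overlapping entries on 1 strand made 1 locus. A host was a gene that holds the whole entry on the same strand, taking a textbook host first and otherwise the shortest. Ratios used rounded expected counts, TMM factors (edgeR 4.0.16; DESeq2 1.42.0 as alternative), a mean count of at least 20 and a prior count of 0.5, with Poisson standard errors, and were checked on simulated data. Named genes were the highest by TPM and count in each class, the members next to the limit, those farthest apart between libraries, the highest in the second quantifier, members of shared hosts and fixed gene lists. Sequences were read from GENCODE M21 transcripts, names at identical positions from RefSeq (GRCm38.p6), and alignments made with Biopython 1.88. One group of 2 libraries allowed no test. Some items are not reported here.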

Additional observations from a re-analysis of the deposited data

How the results depend on the processing

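The number of members was 63 with at least 10 expected counts in both libraries, 65 with a lower TPM bound of at least 1 in both (chosen after seeing the data) and 11 in the second quantifier, against 107, and 121 to 135 with 1 library left out. The second quantifier put the median TPM of both the Snord and the Snora members at 0 and the members' shares at 0.0128% of counts and 0.140% of TPM. Leaving out 1 library gave medians of 113.2 to 169.5 TPM (Snord) and 15.03 to 18.62 TPM (Snora), and shares of 0.0769% to 0.0963% of counts and 1.02% to 1.31% of TPM. The median log2 ratio between the libraries kept its direction in all 8 alternatives, from -0.45 to -0.27. The number over 2-fold apart was 1 with total counts, with TPM ratios and with spike-in scaling, and 13 with no count minimum, since members with few counts then enter. Pairs with a detected host numbered 58 at a limit of 5 TPM for both and 19 of 20 among textbook pairs only. Spearman's rho with the host reversed to -0.11 at 5 TPM, over fewer pairs, and was 0.14 to 0.16 with 1 library left out. The cause of the other changes was not tested. No paired analysis was possible because the 2 libraries form 1 group, and a ratio between them cannot leave one out. Depth limits the 38 members under 10 counts in each library.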

Other observations

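Several well-known H/ACA snoRNAs inside strongly expressed hosts had no counts although they are longer than 100 bases. Snora62, of 149 bases inside Rpsa, was at 0 counts in both libraries, while Gm26448 in the same host had 717 and 558. Snora3 inside Rpl27a, Snora20 inside Tcp1, Snora41 inside Eef1b2 and Snora75 inside Ncl, of 128 to 133 bases, were also at 0 in both. Snora65 inside Rpl12 and Snora69 inside Rpl39 had 2.26 and 2 counts in replicate 1 and 0 in replicate 2. Among C/D entries, Snord13 (104 bases), Snord67 and Snord89 were at 0 in both libraries, and Snord90 had 1 count in replicate 1.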
